A study of Rattus norvegicus with 743 samples.

Results

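Exposure for 4 days to 2,3,7,8-tetrachlorodibenzo-p-dioxin (TCDD) was examined across the whole liver transcriptome of the rat, with most attention to genes outside the xenobiotic-metabolism genes that TCDD is best known for. The comparison held 8 of the 743 libraries of a toxicogenomic survey of pharmaceuticals: the 4 libraries labelled TCDD and the 4 vehicle libraries with the same study, batch number and vehicle, each from a different animal. All 8 animals were male Han Wistar rats, an outbred laboratory strain. Their age was not given in the labels. The TCDD group received 0.00015 mg/kg of TCDD per day for 4 days in 99% corn oil with 1% acetone, and the vehicle group received the oil and acetone alone over the same 4 days. Animals were killed the day after the last dose, at a clock time the labels do not state, and polyadenylated RNA of frozen whole liver was sequenced with a strand-marking kit. The RNA came from whole tissue, so each value is an average over hepatocytes and all other liver cells.

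TCDD binds the aryl hydrocarbon receptor (AhR), a cytosolic basic helix-loop-helix PAS protein that enters the nucleus, pairs with ARNT and binds DNA at a short GCGTG core to switch on a set of detoxification genes such as Cyp1a1. The core of the circadian clock is built from proteins of the same PAS family. BMAL1 (gene symbol Arntl) pairs with CLOCK or NPAS2 and binds E-boxes (CACGTG) to drive the Per, Cry, Nr1d and D-box factor genes, the PER and CRY proteins inhibit the pair, and NR1D and ROR proteins act in opposite senses on Arntl itself. In liver this loop gives daily rhythms to genes of bile acid, lipid, glycogen and drug metabolism, so the level of a clock gene depends on the time of day at which the animal was killed.

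Promoter sequence was taken from RefSeq (assembly GRCr8) as windows of 300 bases, 250 before to 50 after each gene's start. Of the 158 genes named by rule, 120 matched a window. Windows of 5 genes are shown because they show the motifs through which AhR and the clock loop are known to act, in genes that passed the test below. Each is given for 120 bases, 5′ to 3′ on the gene's strand, with the motif match in capitals. In Cyp1b1 (chr6:21094445-21094564, plus strand) the capitals mark the extended AhR element TNGCGTG, 22 bases before the start. In Ciart (chr2:186112247-186112366, minus strand) they mark 3 E-boxes CACGTG at 93, 35 and 21 bases before the start, and in Tef (chr7:115206577-115206696, plus strand) 1 E-box at 198 bases. In Per2 (chr9:99497122-99497241, minus strand) they mark the D-box form TTATGTAA at 192 bases, and in Arntl, listed by RefSeq as Bmal1 (chr1:176766208-176766327, plus strand), the ROR core AGGTCA at 15 bases.
Cyp1b1: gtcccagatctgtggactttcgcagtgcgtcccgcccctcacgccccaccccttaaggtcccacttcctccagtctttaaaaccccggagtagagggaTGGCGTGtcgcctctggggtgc
Ciart: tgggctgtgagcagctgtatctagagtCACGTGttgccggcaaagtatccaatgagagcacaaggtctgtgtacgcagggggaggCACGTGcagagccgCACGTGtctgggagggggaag
Tef: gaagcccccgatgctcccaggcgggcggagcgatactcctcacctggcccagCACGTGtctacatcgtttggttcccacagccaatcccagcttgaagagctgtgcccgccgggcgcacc
Per2: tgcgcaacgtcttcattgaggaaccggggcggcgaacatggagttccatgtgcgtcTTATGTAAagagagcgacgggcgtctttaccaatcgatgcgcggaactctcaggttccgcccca
Arntl: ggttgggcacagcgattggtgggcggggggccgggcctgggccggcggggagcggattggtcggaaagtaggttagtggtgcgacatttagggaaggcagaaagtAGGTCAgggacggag

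Searched on both strands, the AhR core GCGTG was in 29.7% of the 33469 promoter windows and lies inside the extended element TNGCGTG, which was in 4.89%. CACGTG was in 6.42%, TTATGTAA in 0.893%, TTACGTAA in 0.12% and AGGTCA in 16.2%. Among the genes tested below that had a window the shares were 49.3% for the AhR core and 7.62% for the extended element. They were 9.69% for CACGTG, 0.549% for TTATGTAA and 12.4% for AGGTCA. The AhR core was in 49.4% of windows of genes called higher and 52.3% of those called lower. Among the 16 clock genes with a window, 4 held CACGTG (Bhlhe40, Ciart, Nr1d1 and Tef), 3 held AGGTCA (Arntl, Nr1d2 and Usp2), 1 held TTATGTAA (Per2) and 5 held the AhR core (Ciart, Dbp, Npas2, Per3 and Tef). None of the 16 held the extended AhR element. A match is a description of these letters only.

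Depth was similar in both groups, with 18741343 to 23360055 counts per TCDD library and 13641361 to 27903258 per vehicle library. Genes encoded in mitochondria took 2.30% to 3.04% of counts after TCDD and 2.53% to 2.70% in vehicle, and the 20 most abundant genes took 47.4% to 52.6% and 48.6% to 52.3%. RNA integrity did not overlap. The RNA integrity number (RIN) was 9.2, 9.2, 9.3 and 9.1 in the TCDD animals and 8.6, 7, 7.9 and 8 in the vehicle animals, a mean difference of 1.325. All 4 TCDD libraries were read on 1 flow cell lane and all 4 vehicle libraries on another, so within the study lane and treatment cannot be told apart. Whether RIN or lane contributes to the differences below was not tested within the 8 animals beyond the values given next.

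In 153 male Han Wistar vehicle animals of other studies (RIN 6.5 to 9.5), 2424 of 14159 genes (17.1%) had a slope on RIN within groups by edgeR's quasi-likelihood F test. Multiplied by the RIN difference of 1.325, the median slope was −0.06 on the log2 scale over the genes called higher after TCDD and 0.08 over those called lower. With RIN as a covariate in the 8 animals, calls went from 2673 to 50, and 99.4% of the genes called without it kept their sign. That fit uses the same 8 animals, so kept signs are partly built in. RIN and treatment do not overlap in these animals and cannot be told apart. Another study had 2 vehicle males on the TCDD lane, given sesame oil, with RIN of 7.4 and 7.8. They were chosen by lane and sex among vehicle libraries, with no condition on strain or days of dosing. Against these 2 same-lane males, 1393 of 13055 genes (10.7%) were called, among them 894 of 2657 genes of the main comparison in the same direction, and 93.2% of these 2657 had the same sign. The TCDD animals are the same in both comparisons, so shared signs are partly built in and were not set beside a share over all genes. The study and vehicle of these 2 males differ from those of the TCDD animals, and treatment, study and vehicle cannot be told apart in that comparison.

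Of 12782 genes tested, 1123 were higher after TCDD (8.79%) and 1550 lower (12.1%) at an adjusted p under 0.05, by edgeR's quasi-likelihood F test with Benjamini-Hochberg adjustment over all genes, which is the source of every adjusted p below unless stated. Large falls outnumbered large rises: 344 genes fell and 102 rose by at least 1 on the log2 scale. The values of the 4 TCDD animals did not overlap those of the 4 vehicle animals in 3257 genes (25.5%). Each call was also examined with each animal left out in turn. Without vehicle replicate 2 there were 1684 calls, the lowest of the 8 such fits, and the other 7 gave up to 2565. Of the 129 named genes that were called, 89 were called in all 8 of these fits. The other 40 are described as borderline where they are named, a word that refers to these fits alone. Under some other settings fewer of the 129 kept their call and direction: 13 with RIN as a covariate, 72 against the same-lane males (19 changed sign), 32 with study and lane as terms (2 changed sign) and 34 with RIN and the clock score below as terms (26 changed sign). A minimum log2 fold change of 1 left 21. In 1 fit with vehicle animals of other studies 105 kept them without RIN and 104 with RIN as a term, and by DESeq2 128 did. The lane term rests on vehicle males of another study, 2 given sesame oil on the TCDD lane and 1 given sodium chloride on the vehicle lane. Lane and vehicle cannot be told apart there, and strain and days of dosing were not conditions of the choice. Levels are CPM, counts relative to the scaled library total, of the 8-animal fit unless stated, and animals are given in the order of replicates 1 to 4.

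The AhR battery, the set of genes that AhR is known to induce directly, was checked first, as it shows whether the labels hold. Cyp1a1, a cytochrome P450 and the classic AhR target, was 0.256, 2.19, 0.21 and 1.35 CPM in the vehicle animals and 5243, 4093, 3510 and 4493 CPM in the TCDD animals. Cyp1b1 was 0.183, 0.117, 0.28 and 0.104 CPM in vehicle and 557, 317, 217 and 310 CPM after TCDD. Every TCDD animal thus lay far above every vehicle animal for both, which matches the labels. Of 11 tested members, 7 rose and none fell. Cyp1a2 rose from 707 ± 236 to 8525 ± 1923 CPM (SD, n = 4 each), the glucuronosyltransferase Ugt1a6 from 49.3 ± 17.7 to 439 ± 147 CPM and the quinone reductase Nqo1 from 18.4 ± 7.31 to 97.6 ± 20.5 CPM. Ugt1a6 and Ugt1a7c share exons at 1 locus, so reads may be split between them. Nfe2l2, which encodes the oxidative stress factor NRF2, rose by 0.63 ± 0.10 (log2, SE) from 78.2 ± 7.69 to 121 ± 14.4 CPM. Ahr, Arnt and the AhR-induced repressor of AhR signalling Tiparp did not pass the test, with log2 differences of −0.13, 0.21 and 0.31. Aldh3a1, Ahrr and Cyp2s1 were too low to be tested. Aldh3a1 was at most 0.0391 CPM in vehicle and 2.10, 0.646, 0.340 and 0.452 CPM after TCDD.

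The circadian clock had the largest share of called members of the 37 lists. Of its 20 genes 19 were tested (Bhlhe41 was too low), 9 rose (47.4%, against 8.79% of all genes) and 5 fell (26.3%, against 12.1%), and 12 did not overlap between the groups (25.5% of all genes did not). The median log2 change over the 19 was 0.96, against −0.0039 over all genes tested. Dbp, Tef, Per2 and Per3 were among those that rose, and Arntl, Npas2 and Clock among those that fell.

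Dbp, a D-box transcription factor and direct output of the clock, was 1.83, 1.02, 6.73 and 2.12 CPM in vehicle and 77.7, 60.9, 75.9 and 61.2 CPM after TCDD, a log2 change of 4.68 ± 0.51 (SE, adjusted p = 0.001216). Per3, a period gene, was 2.05, 2.9, 6.66 and 3.94 CPM in vehicle and 52.6, 36.7, 41.7 and 40.3 CPM after TCDD (3.52 ± 0.32, adjusted p = 0.0003328). The lowest TCDD animal was above the highest vehicle animal in both genes, and vehicle replicate 3 was the highest vehicle animal in both. Ciart, a repressor of the CLOCK and BMAL1 pair, was 0, 0.117, 0.210 and 0.104 CPM in vehicle and 10.6, 1.81, 4.52 and 1.72 CPM after TCDD (5.52 ± 0.96, adjusted p = 0.006325). With so few vehicle reads the size of that change is poorly fixed, but the groups did not overlap. Per2, a period gene with more modest movement, was 9.25, 5.13, 5.96 and 2.95 CPM in vehicle and 25.2, 18, 19.1 and 15.2 CPM after TCDD (1.72 ± 0.31). Tef, a relative of Dbp, was 22.5, 16.8, 32 and 28 CPM in vehicle and 69.6, 66.6, 67.4 and 59.3 CPM after TCDD (1.41 ± 0.17). Cry2, a cryptochrome, rose from 14.8 ± 1.7 to 30.6 ± 2.55 CPM, and the nuclear repressor Nr1d2 from 36.8 ± 11.7 to 75.8 ± 10.1 CPM. Bhlhe40, a repressor that competes for E-boxes (1.42 ± 0.35), and Usp2, a clock-driven deubiquitinase (1.65 ± 0.48), were borderline, each called in 2 of the 8 fits without 1 animal, with adjusted p up to 0.07303 and 0.1113.

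Arntl, the gene of BMAL1, was 32.6, 31.1, 23.7 and 28 CPM in vehicle and 0.852, 2.28, 1.65 and 3.16 CPM after TCDD, a log2 change of −3.83 ± 0.29 (adjusted p = 9.206e-05). Npas2, whose protein can replace CLOCK, was 17.7, 19.6, 13.5 and 15.3 CPM in vehicle and 1.82, 2.97, 1.75 and 1.36 CPM after TCDD (−3.06 ± 0.22, adjusted p = 3.51e-05). Clock itself was 95.7, 89.8, 90.7 and 100 CPM in vehicle and 52, 54.7, 44.7 and 51.1 CPM after TCDD (−0.89 ± 0.08, adjusted p = 7.738e-05). In all 3 genes the highest TCDD animal was below the lowest vehicle animal. Both falls beyond these were borderline: Nfil3, a D-box repressor, at −1.49 ± 0.43 and the nuclear receptor Rora at −0.42 ± 0.13, with adjusted p up to 0.1159 and 0.1125 when 1 animal was left out. Members that did not pass the test included Nr1d1 (log2 difference 0.96, adjusted p = 0.09515), Hlf (0.44), Per1 (0.22) and Cry1 (−0.43). Nr1d1, the other nuclear repressor of Arntl, was 14.7, 18.3, 45.1 and 30.9 CPM in vehicle and 59.3, 45.3, 61.6 and 44.2 CPM after TCDD, so its groups overlapped.

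**Figure D1:**
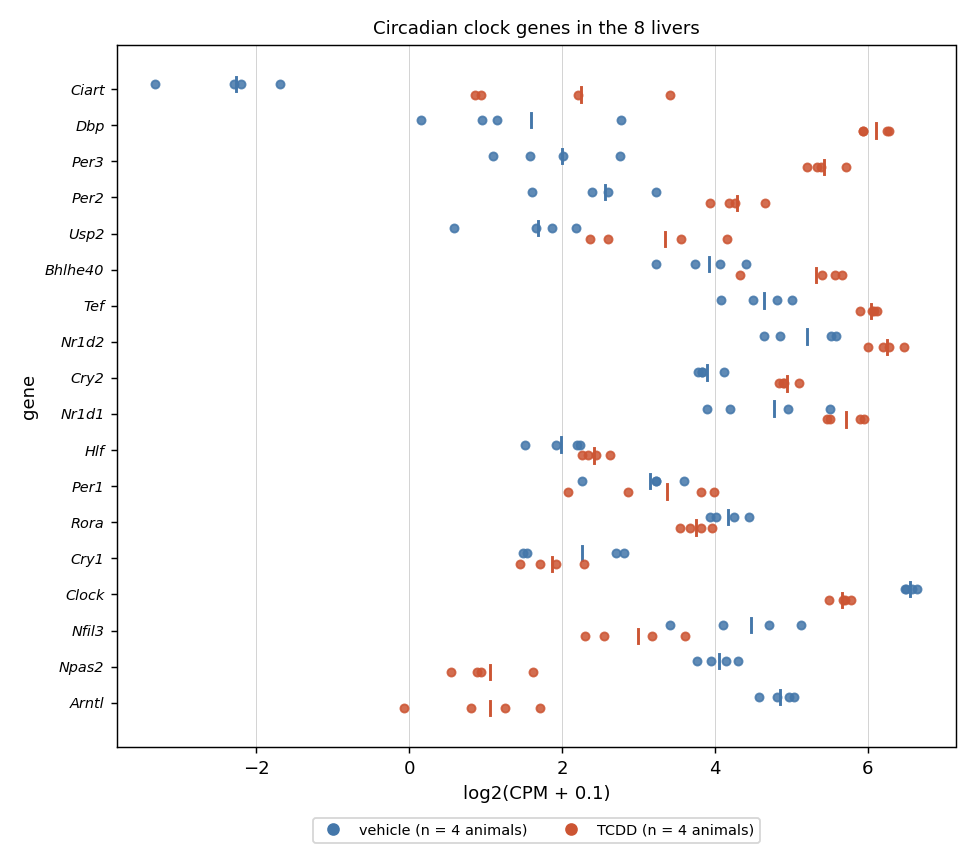
Circadian clock genes in the 8 livers. Each dot is 1 animal at log2(CPM + 0.1) on the x axis, blue for the 4 vehicle and red for the 4 TCDD animals, and short bars mark the log2 of the group mean plus 0.1; Dbp, Per3 and Ciart lie to the right after TCDD, and Arntl, Npas2 and Clock to the left, without overlap.

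A clock score was taken per animal by averaging the log2 CPM of 6 rising genes (Ciart, Dbp, Nr1d2, Per2, Per3 and Tef) and subtracting the average of 3 falling ones (Clock, Arntl and Npas2). Since these genes were known to differ here, the score is a description and carries no test. It was −3.39, −3.48, −2.11 and −3.01 in the vehicle animals and 3.26, 1.88, 2.67 and 2.02 in the TCDD animals. On a scaling over all animals of the series, the means of 41 Han Wistar vehicle groups of other studies ran from −3.60 to −1.35 with a median of −2.54, the vehicle group of the TCDD study was at −3.04, and the TCDD group, at 2.47, was above all 41. The 3 vehicle males of another study that shared the TCDD lane (2, given sesame oil) or the vehicle lane (1, given sodium chloride) scored −3.70, −3.56 and −3.54. Among 99 treated groups of the series the TCDD group ranked 5 from the top, below cefuroxime at 4.74, trimethobenzamide at 4.51 and megestrol at 3.12, among others, while the median treated group was at −1.40. High scores were therefore not restricted to TCDD. The time of day at which each group was killed was not given in the labels, so time of death and treatment cannot be told apart for clock genes.

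**Figure D2:**
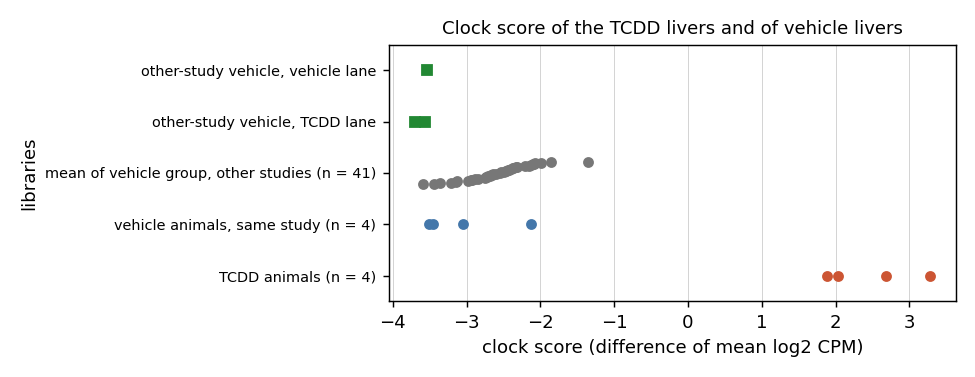
Clock score of the TCDD livers and of vehicle livers. The x axis is the clock score, a difference of mean log2 CPM on the scaling over all animals; each round dot is 1 animal (TCDD study) or 1 group mean (41 vehicle groups of other Han Wistar studies), and squares are vehicle males of another study read on the same lanes; the 4 TCDD animals lie between 1.89 and 3.28, and the highest vehicle group is at −1.35.

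Outside the AhR battery and the clock, the largest rises included Hsd17b2, Upp2 and Thrsp. The genes described here are from the 15 largest called rises and the 15 largest called falls with a mean of at least 5 CPM, a gene symbol and no overlap between the groups, with Per2, Usp2, Dbp, Per3, Arntl and Npas2 given above. Hsd17b2, which oxidises oestradiol and testosterone to less active forms, was 67.6, 55.3, 185 and 139 CPM in vehicle and 703, 716, 780 and 646 CPM after TCDD, a log2 change of 2.68 ± 0.39 (adjusted p = 0.003668). Upp2, a uridine phosphorylase of pyrimidine salvage, was 13.9, 18.4, 13.7 and 21 CPM in vehicle and 102, 81.6, 156 and 65 CPM after TCDD (2.59 ± 0.30, adjusted p = 0.001012). Thrsp, a thyroid-hormone-responsive regulator of lipogenesis, was 47.5, 61.2, 74.5 and 46.2 CPM in vehicle and 403, 183, 225 and 195 CPM after TCDD (2.13 ± 0.29, adjusted p = 0.002172). The 4 TCDD animals were close together for Hsd17b2, whose vehicle animals differed more, whereas TCDD replicate 1 stood highest for Thrsp. Slc20a1, a sodium-phosphate cotransporter, was 16.2, 17.4, 16.8 and 15.8 CPM in vehicle and 71.2, 47.3, 61.8 and 43.7 CPM after TCDD (1.76 ± 0.15, adjusted p = 6.186e-05). Gys2, the liver glycogen synthase, was 51.2, 54.5, 35.4 and 45.5 CPM in vehicle and 167, 132, 155 and 107 CPM after TCDD (1.58 ± 0.17, adjusted p = 0.000245). Klf16, a Krüppel-like zinc finger factor, was 3.73, 3.45, 4.21 and 4.14 CPM in vehicle and 12.7, 10.4, 14.8 and 9.53 CPM after TCDD (1.62 ± 0.15, adjusted p = 9.287e-05). For Slc20a1 and Klf16 the vehicle animals were tightly grouped. In Slc20a1, Gys2 and Klf16 every TCDD animal was above every vehicle animal. Ier3, an immediate early gene, rose from 9.67 ± 1.18 to 35.1 ± 9.05 CPM, Cyp3a62, a cytochrome P450 of the 3A family, from 6.36 ± 1.75 to 20.9 ± 5.58 CPM, and Gprin3 from 19.6 ± 7.99 to 61.9 ± 5.76 CPM. Scml4, related to polycomb proteins, rose from 1.83 ± 0.603 to 7.3 ± 1.74 CPM and Pcp4l1 from 5.56 ± 2.49 to 16.8 ± 3.12 CPM.

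Cdkn1a, the cyclin-dependent kinase inhibitor p21, was 12.2, 14.2, 4.7 and 6.48 CPM in vehicle and 1.42, 0.517, 0.875 and 0.678 CPM after TCDD, a log2 change of −3.47 ± 0.45 (adjusted p = 0.001277). Slc6a6, the taurine transporter, was 25.5, 27.5, 48 and 51.9 CPM in vehicle and 3.75, 9.87, 4.32 and 3.21 CPM after TCDD (−2.83 ± 0.43, adjusted p = 0.004717). Slc45a3, a solute carrier, was 10, 9.94, 7.64 and 10.8 CPM in vehicle and 0.909, 1.21, 1.75 and 1.72 CPM after TCDD (−2.77 ± 0.20, adjusted p = 2.836e-05). In each the highest TCDD animal was below the lowest vehicle animal, and TCDD replicate 2 stood above the other 3 for Slc6a6. Chka, choline kinase alpha of phosphatidylcholine synthesis, was 79.4, 71.3, 79.8 and 71.4 CPM in vehicle and 22.8, 17.7, 19 and 16 CPM after TCDD (−2.0 ± 0.11, adjusted p = 8.319e-06). Tubb2a, a beta-tubulin, was 30.8, 34, 36.2 and 40 CPM in vehicle and 7.1, 8.66, 6.22 and 8.59 CPM after TCDD (−2.20 ± 0.13, adjusted p = 8.319e-06). Tubulin genes are close in sequence, so its reads may be shared with relatives. Within each group the animals were close together for both genes. Zbtb16, a zinc finger repressor known to respond to glucocorticoids, was 26.2, 51.9, 23.2 and 36.8 CPM in vehicle and 10, 2.59, 3.26 and 1.85 CPM after TCDD (−3.00 ± 0.57, adjusted p = 0.01149). The RIN slope of Zbtb16 in other vehicle animals times the RIN difference was −0.85, with a slope that was not called. Slc34a2, a phosphate cotransporter, fell from 52.8 ± 26.9 to 8.37 ± 2.71 CPM, the kinase gene Nim1k from 15.2 ± 4.79 to 2.91 ± 1.54 CPM, the acid phosphatase Acpp from 27 ± 3.41 to 6.45 ± 1.69 CPM and Inhba, the activin A subunit, from 7.76 ± 1.26 to 1.7 ± 0.673 CPM.

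The falls also included genes of large chromatin and RNA-binding proteins. Setd1b, a histone H3 lysine 4 methyltransferase, was 13.9, 30.1, 25.7 and 24.2 CPM in vehicle and 5.68, 4.65, 4.52 and 4.88 CPM after TCDD (−2.25 ± 0.22, adjusted p = 0.0002186). Prrc2a, an RNA-binding protein, was 55.1, 92.9, 80 and 80.5 CPM in vehicle and 21.9, 18.1, 20.2 and 17.5 CPM after TCDD (−1.99 ± 0.15, adjusted p = 4.352e-05). In both genes the vehicle animal of highest RIN, replicate 1, was the lowest of the vehicle animals and still above every TCDD animal. With RIN as a covariate the changes were −1.36 for Setd1b (adjusted p = 0.05799) and −1.42 for Prrc2a (0.02617).

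**Figure D3:**
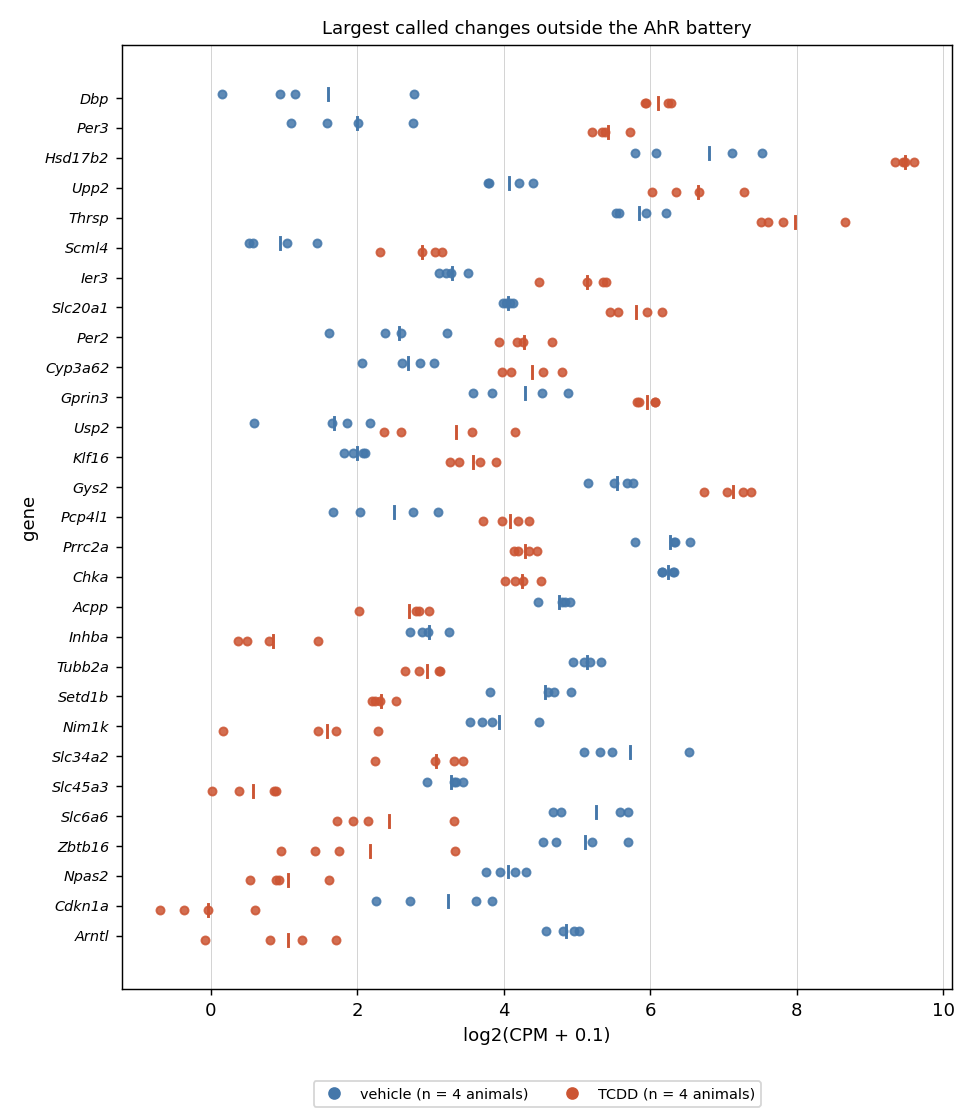
Largest called rises and falls outside the AhR battery. Each dot is 1 animal at log2(CPM + 0.1), blue for vehicle (n = 4) and red for TCDD (n = 4), with short bars at the log2 of the group mean plus 0.1; genes are ordered by log2 change from Dbp (4.68) at the top to Arntl (−3.83) at the bottom, and no gene overlaps because the choice of genes required it.

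These levels were set beside 40 vehicle groups of male Han Wistar rats in other studies (159 animals), on the scaling over all animals of the series, which gives CPM values higher than those of the 8-animal fit. On that scale Dbp had a mean of 95.9 CPM after TCDD against 2.33 to 12.3 CPM over the 40 groups, Per3 59.6 against 1.95 to 10.4, and Arntl 2.77 against 33.8 to 52.4. The vehicle means of the TCDD study, 3.98, 5.3 and 39.6 CPM, lay inside those ranges. Thrsp (350 CPM after TCDD against 26.1 to 199), Gys2 (195 against 50.6 to 120), Prrc2a (27 against 49.5 to 138), Chka (26.3 against 47.2 to 162) and Tubb2a (10.6 against 34.2 to 83.5) also had TCDD means outside the range and vehicle means inside it. For other genes the vehicle group was the unusual one. Hsd17b2 was 990 CPM after TCDD, but its vehicle mean of 153 CPM was already above all 40 groups (16.7 to 58.6), and Setd1b had a vehicle mean of 32.1 CPM above all 40 (9.43 to 28.5) as well as a TCDD mean of 6.86 CPM below all of them. Per2 had a vehicle mean of 7.99 CPM below all 40 groups (8.94 to 56.6), and its TCDD mean of 26.9 CPM was exceeded by 32 of them. Inhba (TCDD 2.37 CPM, range 0.898 to 8.56) and Zbtb16 (6.15 CPM, range 1.81 to 99.2) had TCDD means inside the range. Among 98 treated groups with their own vehicles, ranked by log2 ratio of mean CPM, TCDD was the highest for Dbp, Per3, Per2, Tef, Ciart, Usp2, Hsd17b2, Upp2, Ier3, Gprin3 and Klf16, and the lowest for Arntl, Zbtb16, Slc45a3, Setd1b, Tubb2a, Inhba, Chka and Prrc2a. The clock genes rank by difference from their own vehicles here, not by level. Most of the genes listed were chosen for a large change in this same comparison, so extreme ranks are partly built in. Only genes where TCDD ranked first or last are listed, and ranks of the other named genes are not given.

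**Figure D4:**
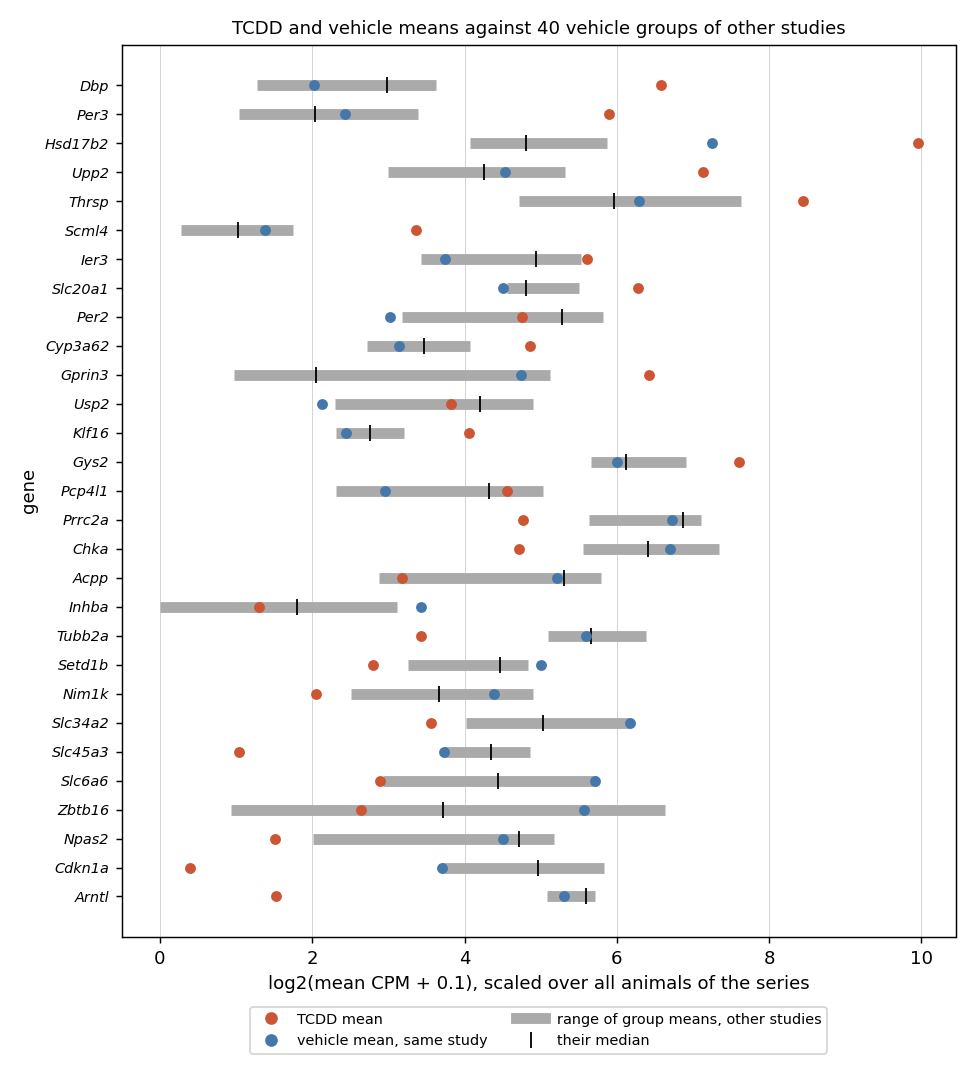
TCDD and vehicle means against 40 vehicle groups of other studies. The x axis is log2(mean CPM + 0.1) on the scaling over all animals of the series; grey bars span the 40 group means with a tick at their median, red dots are the TCDD mean and blue dots the vehicle mean of the same study; for Dbp and Arntl only the red dot leaves the bar, whereas for Hsd17b2 and Setd1b the blue dot lies outside it as well.

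Several genes of oxidative stress defence rose that were not on the AhR battery list. Of 29 tested targets of NRF2, 11 rose (37.9%, against 8.79% of all genes), 1 fell and 17 did not pass the test. The median log2 change was 0.40. The list shares Nqo1 and Ugt1a6 with the AhR battery, and the promoter window of Gsta2 held 1 extended AhR element. Whether AhR acts directly on these genes was not tested. Gsta2, a glutathione transferase, was 92.6, 112, 76.9 and 112 CPM in vehicle and 278, 255, 236 and 297 CPM after TCDD (1.44 ± 0.13, adjusted p = 7.387e-05). Gclm, the modifier subunit of the enzyme that limits glutathione synthesis, was 74.1, 67.2, 68.5 and 75.1 CPM in vehicle and 121, 121, 128 and 116 CPM after TCDD (0.77 ± 0.07, adjusted p = 9.437e-05). Both were clear of overlap, although Gsta2 shares reads with close relatives. The aflatoxin aldehyde reductase Akr7a3 was borderline (1.21 ± 0.35, adjusted p up to 0.1079 without 1 animal). Fth1, the ferritin heavy chain, fell from 361 ± 35.6 to 229 ± 20.4 CPM, the reverse of the list's other called members. Of 12 tested targets of CAR, the receptor of phenobarbital-like drugs, 2 rose (16.7%, against 8.79% of all genes) and none fell, with a median log2 change of 0.36. The 2 were Gsta2 and Cyp2c6v1 (from 1795 ± 153 to 2445 ± 266 CPM). On the scaling over all animals Cyp2c6v1 averaged 3404 CPM after TCDD, against 3257 and 2975 CPM in the same-lane males. On that scaling the uncalled Cyp2b1 went from 62.9 to 34.0 CPM and the uncalled Cyp2b2 from 109 to 55.6 CPM. Of 8 tested targets of PXR, the receptor of steroid-like drugs, 3 rose (37.5%, against 8.79% of all genes) and none fell. Cyp3a62 was first, Abcc2 was borderline, and the other was Gsta2, already counted for NRF2 and CAR.

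Of 25 tested targets of PPARalpha, the receptor that drives fatty acid oxidation in fasting, 2 rose (8%, against 8.79% of all genes) and 5 fell (20%, against 12.1%). Plin2, a coat protein of lipid droplets, was 125, 146, 121 and 111 CPM in vehicle and 50.5, 56.8, 51 and 42.3 CPM after TCDD (−1.33 ± 0.11, adjusted p = 5.022e-05). Angptl4, an inhibitor of lipoprotein lipase, was 59.4, 97.1, 73.2 and 84.2 CPM in vehicle and 23.7, 25.9, 19.8 and 33.8 CPM after TCDD (−1.60 ± 0.19, adjusted p = 0.0006722). Pdk4, which spares glucose from oxidation, fell from 27.1 ± 10.5 to 7.98 ± 3.08 CPM, whereas Cpt1a, the gate of mitochondrial fatty acid import, rose from 415 ± 29 to 616 ± 86 CPM and the trifunctional protein subunit Hadhb from 159 ± 26.4 to 228 ± 13.3 CPM. The peroxisomal gene Pex11a was borderline (−1.09 ± 0.30, adjusted p up to 0.1022). Against the 2 same-lane vehicle males of another study the change of Hadhb was −0.09, so its direction rests on the study's own vehicles.

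In cholesterol synthesis, 5 of 25 tested genes fell (20%, against 12.1% of all genes) and none rose. Against the same-lane males the list turned, with 13 genes called higher and 1 lower. Insig1, the retention protein of the SREBP processing complex, was 87.3, 129, 78.9 and 117 CPM in vehicle and 39.6, 26.2, 34 and 26.9 CPM after TCDD (−1.70 ± 0.19, adjusted p = 0.0005072). Srebf2, the transcription factor of the pathway, fell from 51.4 ± 10.9 to 27.7 ± 2.65 CPM and Hmgcs1, its first dedicated synthase, from 460 ± 49.1 to 309 ± 45.2 CPM, while Ebp and Pmvk were borderline at −0.42 each. The vehicle means of Srebf2 and Hmgcs1 were above all 40 vehicle groups of other studies, and against the 2 same-lane vehicle males the changes were 0.08 and 0.45 for these genes, 0.19 for Ebp and 0.17 for Pmvk. Insig1 kept its fall there, at −1.75. Among 16 tested genes of fatty acid synthesis, Thrsp rose and 2 fell, 12.5%, near the 12.1% of all genes: Fasn, the fatty acid synthase (49.5, 96, 88.1 and 80.6 CPM in vehicle, 42.8, 35.5, 30.2 and 32.9 CPM after TCDD), and Gpam, the first acyltransferase of triglyceride synthesis (125 ± 16.3 to 60.5 ± 13.5 CPM). For Fasn the change was 0.38 against the same-lane males. Of 18 tested bile acid genes 2 rose and 2 fell, 11.1% each way, near the 8.79% and 12.1% of all genes. Nr1h4, the bile acid receptor FXR, fell from 61.7 ± 11.3 to 36.7 ± 3.35 CPM, and the transporters Abcg5 (0.62), Abcc2 (0.45) and Abcb11 (−0.37) were borderline.

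Of 19 tested genes of glucose and glycogen metabolism 4 rose (21.1%, against 8.79% of all genes) and 3 fell (15.8%, against 12.1%). Besides Gys2, the glucose transporter Slc2a2 was 152, 181, 183 and 208 CPM in vehicle and 350, 303, 370 and 246 CPM after TCDD (0.81 ± 0.14, adjusted p = 0.0025). Pygl, liver glycogen phosphorylase, fell from 193 ± 12.6 to 126 ± 6.37 CPM, and Gckr, the regulator of glucokinase, from 182 ± 9.24 to 135 ± 14 CPM. Foxo1, a factor that drives fasting glucose output, was 22.2, 25.3, 22.5 and 20.6 CPM in vehicle and 11.8, 10, 11 and 11.8 CPM after TCDD (−1.03 ± 0.09, adjusted p = 8.041e-05). Pck1 and G6pc, enzymes of fasting glucose output, did not pass the test (−0.27 and −0.43, adjusted p = 0.09698 and 0.6578).

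In amino acid breakdown and the urea cycle 4 of 18 tested genes rose (22.2%, against 8.79% of all genes) and 2 fell (11.1%, against 12.1%). Sds, serine dehydratase, rose from 30.1 ± 5.34 to 71.2 ± 16.8 CPM and Tdo2, tryptophan dioxygenase, from 417 ± 65.5 to 656 ± 144 CPM, while Aass, of lysine breakdown, fell from 124 ± 18.6 to 81.9 ± 14.3 CPM. The TCDD mean of Sds was near the low end of other vehicle groups (99.1 CPM against 87.9 to 292) and its vehicle mean of 41.2 CPM was below all 40, and against the same-lane males the change was −0.41. Ass1, argininosuccinate synthase, was borderline at −0.41. Asl, argininosuccinate lyase, rose by 0.48, and against the same-lane males its change was −0.42. In sulfur amino acid and taurine metabolism 2 of 13 rose (15.4%) and 4 fell (30.8%). Next to the taurine transporter Slc6a6, Ahcy, which clears S-adenosylhomocysteine, fell from 511 ± 95.8 to 292 ± 33.8 CPM and Cth, which makes cysteine, from 628 ± 47 to 382 ± 75.1 CPM. Gnmt was borderline (−0.68). Mat1a, which makes S-adenosylmethionine, rose from 1395 ± 117 to 2027 ± 250 CPM and Cdo1, of cysteine oxidation, by 0.42 ± 0.10. Against the same-lane males the changes of Mat1a and Cdo1 were −0.07 and −0.11.

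Counts of the hormone-related lists are given beside the 8.79% of all genes that rose and the 12.1% that fell. Of 15 tested genes of steroid and sex-dependent metabolism 4 rose (26.7%) and none fell. Akr1c14, a hydroxysteroid dehydrogenase, was 647, 580, 562 and 607 CPM in vehicle and 1011, 943, 924 and 1049 CPM after TCDD (0.71 ± 0.09, adjusted p = 0.0003681), Hsd17b10 rose by 0.36 ± 0.08, and Sult2a6 was borderline at 0.42 (−0.03 in the RefSeq count table). In thyroid hormone handling 3 of 11 rose (27.3%) and 2 fell (18.2%). The rises included Ugt1a6 of the AhR battery and Thrsp of the fatty acid synthesis list, so this share is not separate from those lists. The amino acid and thyroid hormone transporter Slc16a10 rose by 0.74 ± 0.18, a call lost without vehicle replicate 4 (adjusted p = 0.05133), and was −0.55 against the same-lane males. The thyroid receptor Thra was borderline at −0.55. The growth hormone and IGF axis had 2 falls (11.8%) and no rise among 17 genes: Stat5b, which transduces growth hormone signals, from 45 ± 1.7 to 26.3 ± 3.87 CPM, and the IGF carrier Igfbp3 from 42 ± 9.81 to 26 ± 2.83 CPM. The vehicle mean of Stat5b was above all 40 other vehicle groups. Of 16 tested glucocorticoid-responsive genes 2 rose (Mt2A and Klf15, by 0.64 and 0.57) and 4 fell (Cdkn1a, Zbtb16, Angptl4 and Tsc22d3). Tsc22d3, a glucocorticoid-induced leucine zipper, fell by 1.38 on the log2 scale, a call lost without TCDD replicate 2, 3 or 4 (adjusted p up to 0.05742). Of 17 retinoid genes 3 rose (17.6%, against 8.79% of all genes). Adh4, a retinol-oxidising dehydrogenase, was borderline (1.11), Dhrs4 rose by 0.35 with a call lost without TCDD replicate 4 (adjusted p = 0.0513) and a change of −0.16 against the same-lane males, and the retinoic acid hydroxylase Cyp26a1 rose by 1.33 at a low level; it is outside the rule for named genes and was chosen after its value was seen. In heme and iron metabolism 3 of 19 rose (15.8%) and 2 fell (10.5%), with Cp, ceruloplasmin, up by 0.45 and the iron exporter Slc40a1 at −0.45 on the log2 scale. Hfe and Urod were borderline.

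The stress and growth lists are read against the same shares of all genes, 8.79% and 12.1%. Of 25 genes of the ATF4 and unfolded protein responses 6 rose (24%) and 1 fell (4%). Trib3, a pseudokinase induced by stress, rose from 5.77 ± 0.314 to 13.9 ± 2.48 CPM (1.26 ± 0.13), the chaperone Pdia4 from 166 ± 16 to 264 ± 26.4 CPM, and Sesn2, a stress-induced inhibitor of mTORC1, fell from 22.7 ± 2.31 to 9.53 ± 1.45 CPM (−1.25 ± 0.12). Xbp1 (0.91), Ddit3 (0.52) and Calr (0.41) were borderline. Against the same-lane males the changes of Trib3 and Pdia4 were −0.09 and −0.10. Of 12 genes of the p53 response and growth arrest 3 rose (25%) and 2 fell (16.7%). Besides Cdkn1a, Phlda3 fell from 6.67 ± 1.34 to 3.91 ± 0.729 CPM, and Ccng1 rose by 0.50 ± 0.10 (−0.29 against the same-lane males), while Gadd45a and Mdm2 were borderline. Of 28 tested proliferation genes none rose and 2 fell (7.14%), Ccnb1 (−1.23) and Ube2c (−1.47), both at a few CPM or less and chosen after their values were seen. The 2 of highest CPM, Ccnd1 and Mki67, did not pass the test (−0.28 and −0.71). Mki67 was 2.32 higher than in the same-lane males (adjusted p = 0.01004). Immediate early genes held Ier3 and the borderline fall of Myc (−1.50). Of 19 acute phase genes 4 rose (21.1%) and 1 fell (5.26%), led by the interleukin 1 receptor Il1r1, which was 117, 98.8, 67.3 and 69.4 CPM in vehicle and 185, 193, 185 and 186 CPM after TCDD (1.08 ± 0.17, adjusted p = 0.001888). Crp, Orm1 and Itih4 were borderline, and Orm1 was −0.10 against the same-lane males. The cochaperone Bag3 fell from 14.4 ± 2.63 to 6.43 ± 2.24 CPM among 12 heat shock genes, where Hspd1 was borderline and −0.01 against the same-lane males. None of 16 interferon genes and none of 13 genes encoded in mitochondria was called by edgeR. At an unadjusted p under 0.05 there were 3 interferon genes (Gbp2, Irf9 and Stat2, chosen after their values were seen) and 0 mitochondrial ones, and DESeq2 called 3 higher and 0. Among 19 hepatokine and lipoprotein genes 1 was, the borderline Pltp (−0.48). Of 24 ribosomal protein genes 4 rose (16.7%) and 1 fell (4.17%), with Rps4x up by 0.40 ± 0.08 and Rps16 at −0.83 ± 0.17, and Rps14 and Rpl5 borderline. Ribosomal protein genes have many near-identical copies, so these values are uncertain.

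**Figure D5:**
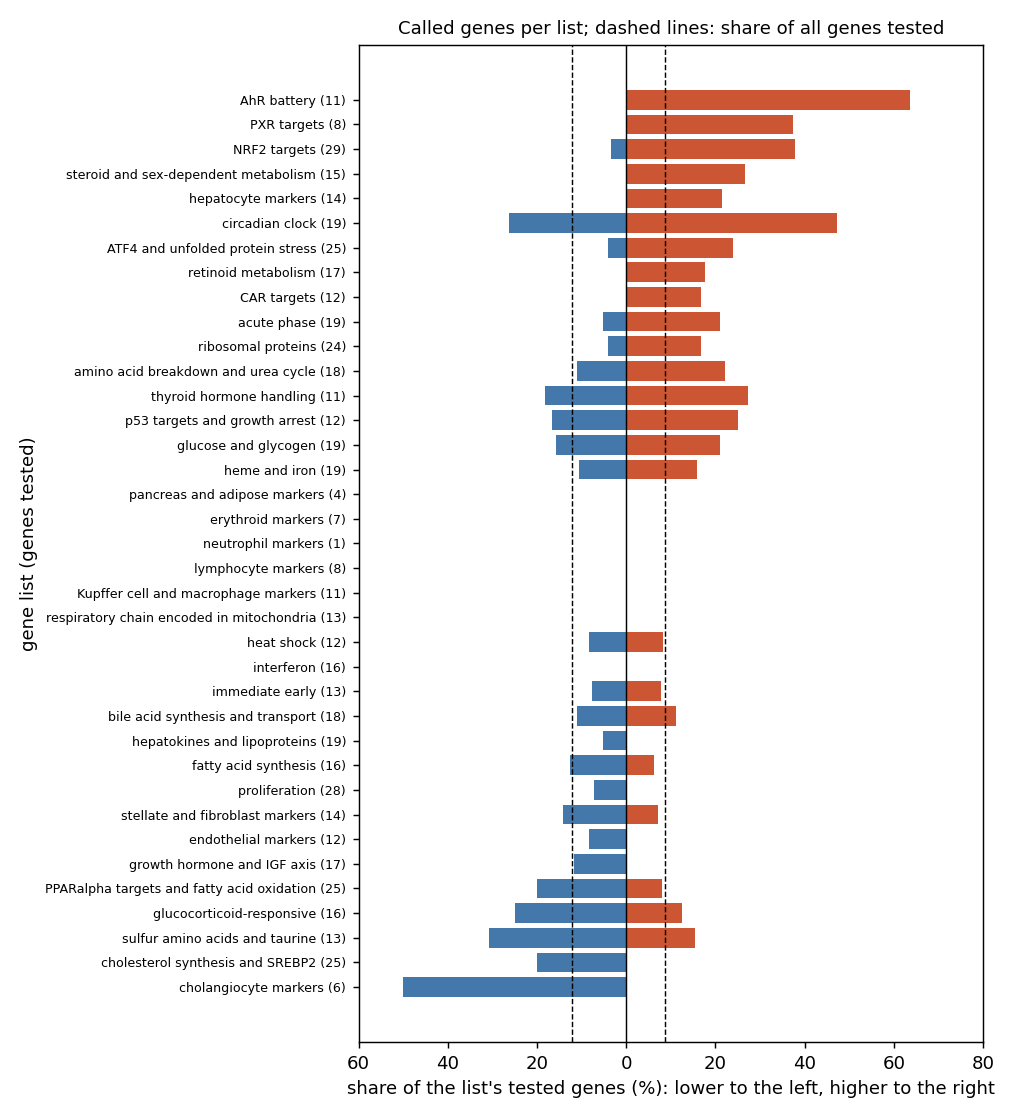
Share of called genes in each of 37 gene lists. Bars to the right give the share of a list's tested genes that were higher after TCDD and bars to the left the share that were lower, in percent, with the number of genes tested after each list's name; dashed lines mark the shares over all genes tested, 8.79% higher and 12.1% lower, and the AhR battery and the circadian clock reach furthest to the right.

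Few markers of liver cell types passed the test, and counts are given beside the 8.79% of all genes that rose and the 12.1% that fell. Of 14 tested hepatocyte markers 3 rose (21.4%), among them Tdo2 and the borderline Cyp2e1 (−0.29 against the same-lane males), and none fell. Their summed level was 109073 to 133835 CPM in vehicle and 118205 to 142516 CPM after TCDD, so the labelled tissue's own markers were abundant in all 8 animals. None of 11 Kupffer cell, 8 lymphocyte, 7 erythroid or 4 pancreas and adipose markers, nor the 1 tested neutrophil marker, was called by edgeR. At an unadjusted p under 0.05 there were Vsig4 of the Kupffer cell list and Cela1 of the pancreas and adipose list, and DESeq2 called 1 higher in each of these 2 lists and 0 in the other 3. Summed levels were 416 to 593 CPM in vehicle and 506 to 553 CPM after TCDD for Kupffer cells, 27.7 to 35.9 and 24.6 to 34.4 CPM for lymphocytes, 0.57 to 3.41 and 1.54 to 3.86 CPM for neutrophils and 313 to 519 and 424 to 692 CPM for erythroid cells. Pancreas and adipose markers summed to 36.7 to 43.2 CPM in vehicle and 44.5 to 55.2 CPM after TCDD. Their defining genes were low, and their part in any result was not tested. Cholangiocyte markers were lower after TCDD. Of 6 tested, 3 fell (50%), among them Sox9 (0.632 to 0.114 CPM) and the borderline Epcam. The list's sum was 16.9 to 22.3 CPM in vehicle and 11.6 to 14.8 CPM after TCDD, without overlap. Fewer cholangiocytes and less RNA per cell cannot be told apart in whole tissue. Of 12 endothelial markers 1 fell (8.33%, below the 12.1% of all genes) and none rose. It was Clec4g, a lectin of sinusoidal cells (6.61 ± 1.25 to 2.66 ± 0.345 CPM), and sums were 521 to 567 and 508 to 569 CPM. Of 14 stellate and fibroblast markers 2 fell (14.3%) and 1 rose (7.14%), near the shares of all genes. Pdgfrb fell (27 ± 2.96 to 17.9 ± 2.61 CPM), as did Acta2, smooth muscle actin, at a low level (2.29 to 0.685 CPM, chosen after its value was seen). Colec10 was borderline at 0.39, and sums were 601 to 793 and 586 to 711 CPM.

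To see which changes went beyond a rise of Cyp1a enzymes, the TCDD effect was compared with that of 2 other Cyp1a inducers of the survey, each measured against its own 4 vehicle animals in 1 fit of 4 groups. Flutamide, an antiandrogen, was dosed daily at 600 mg/kg in methylcellulose over 4 days in male Han Wistar rats, and raised Cyp1a1 by 11.38 ± 0.83 on the log2 scale, against 12.01 after TCDD in the same fit. Omeprazole, a proton pump inhibitor, was dosed daily at 750 mg/kg in methylcellulose over 4 days in male Sprague Dawley rats, and raised Cyp1a1 by 7.99 ± 1.22. Doses, vehicles, studies and, for omeprazole, strain differ along with the agent and cannot be told apart from it. RIN was 8.8 to 9.2 after flutamide and 8.2 to 8.3 in its vehicle animals, without overlap. For omeprazole it was 7.8 to 8.4 and 7.2 to 8.

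The TCDD and flutamide effects differed in 4355 of 13304 genes (32.7%), with 1963 larger and 2392 smaller after TCDD. Flutamide itself raised 24.4% and lowered 24.5% of genes. Of 1121 genes higher after TCDD, 550 (49.1%) were also higher after flutamide, which is 16.9% of those higher after flutamide, and 145 were lower. Of 1547 lower after TCDD, 597 (38.6%, or 18.3% of flutamide's) were also lower and 223 were higher. The AhR targets Cyp1a1 and Cyp1a2 did not differ beyond the error (differences of 0.63 ± 0.93 and 0.24 ± 0.41), while Cyp1b1 was larger by 6.35 on the log2 scale after TCDD (adjusted p = 0.02307) and Nqo1 differed by −2.74 (from 21.4 to 756 CPM after flutamide). Among clock genes, flutamide raised Per3 (2.50 ± 0.49) and lowered Npas2 (−3.73 ± 0.65) by amounts whose difference from TCDD did not pass the test (adjusted p = 0.2776 and 0.6021). Dbp and Arntl moved further after TCDD, by 3.39 ± 0.91 and −2.55 ± 0.78 (adjusted p = 0.01196 and 0.02305), and Clock differed by −1.02 (adjusted p = 0.0001988). The flutamide changes of the chromatin and RNA-binding genes Setd1b and Prrc2a were −0.11 and 0.10, neither called, and the differences were −2.14 ± 0.27 and −2.09 ± 0.18 (adjusted p = 3.286e-05 and 8.113e-07). Tubb2a rose after flutamide by 1.13 and fell after TCDD, Upp2 fell by 1.76 on the log2 scale after flutamide and rose after TCDD, and both differences passed the test. Hsd17b2, Thrsp, Slc20a1, Slc6a6 and Plin2 moved the same way after both agents, and their differences did not pass the test.

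The TCDD and omeprazole effects differed in 1233 of 13469 genes (9.15%), 435 larger and 798 smaller after TCDD. Omeprazole itself raised 5.45% and lowered 3.88% of genes. Of 1121 genes higher after TCDD, 209 (18.6%, or 28.5% of omeprazole's) were also higher, and of 1546 lower, 106 (6.86%, or 20.3%) were also lower. Cyp1a2 rose after omeprazole by 4.13 ± 0.36, and its difference of −0.53 ± 0.45 did not pass the test. Arntl did not move beyond the error after omeprazole (−0.55 ± 0.34) and differed by −3.27 ± 0.53 (adjusted p = 0.002207), whereas the differences for Dbp (2.65 ± 0.98) and Per3 (2.08 ± 0.75) did not pass the test (adjusted p = 0.1096 and 0.1023). Setd1b, Prrc2a and Slc45a3 again differed, by −2.04 ± 0.25, −1.88 ± 0.17 and −2.35 ± 0.30 (adjusted p = 0.0001671, 2.371e-05 and 0.0002119), with omeprazole changes of −0.19, −0.10 and −0.41, none called. Gys2, Slc20a1 and Klf16 were larger after TCDD by 1.94, 1.55 and 1.21, and each difference passed the test. Both comparisons share the TCDD study's 8 animals, so a change in those animals appears in both.

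The genes called lower were longer than the rest. In RefSeq GRCr8, which held a length for 84.3% to 93.6% of each set, the median gene length was 34793 bases for genes called lower, 23593 for genes called higher and 25441 for all genes tested. Genes that fell by at least 1 on the log2 scale had a median of 32816 bases and those that rose by as much 25881. These medians are descriptions with no test.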

How the data were processed

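Liver RNA of 8 male Han Wistar rats was compared, 4 given TCDD and 4 given vehicle. The authors deposited expected counts per gene (estimated counts that need not be whole) with Ensembl identifiers; the genome build was Rnor 6.0 per the submitters' processing notes, and the aligner and counter are not given in the sources used here. A second deposited table of estimated counts, on RefSeq genes, served as an alternative, and 719 of its value columns were not used. Expected counts were rounded and the row of the whole Ugt1a locus was dropped. Where a symbol was on several rows, the row with most counts was used. Genes were kept by filterByExpr, scaled by TMM and tested with edgeR 4.0.16 (R 4.3.3; limma 3.58.1, DESeq2 1.42.0; matplotlib 3.10.9) by its robust quasi-likelihood F test (2-sided), adjusted by Benjamini-Hochberg over all genes, with a threshold of 0.05. Library totals ran from 13641361 to 27903258 counts. The fits over many vehicle animals used spline-binned trended dispersions. Replicates are separate animals by their labels. No 2 libraries of a group agreed within sampling noise.

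Named genes were the 15 largest called rises and falls outside the AhR battery with at least 5 CPM, a symbol and no overlap between groups, up to 6 called members per list (the 2 highest where under 2 were called), all AhR battery and clock genes, and the 8 largest differences each way. Symbols that are only identifiers were passed over (126 genes), and some genes that the rule names are not reported here, although counts include them. The members and the 37 gene lists were chosen with earlier results of these data known. The RIN slope was fitted in 153 vehicle animals of 38 groups with at least 5000000 counts. Log2 CPM used a prior count of 2, ratios of mean CPM a pseudocount of 1 and plots 0.1. The statistics were tested on simulated data. Alternatives covered normalisation, the low-count filter, a minimum fold change, RIN, lane, clock score, other vehicle animals, the RefSeq table and leaving out each animal.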

Additional observations from a re-analysis of the deposited data

Results flagged for a closer look

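Each named gene was examined for a single animal far from the other 3 of its group, by Dixon's ratio at its critical value for 4 animals. Of 326 sets of 4 values, 11 passed it; chance gives about 1 in 20. In the TCDD group the high values were Slc6a6 in replicate 2 at 9.87 CPM, Ugt1a7c in replicate 1 at 199 CPM, Pdk4 in replicate 2 at 12.6 CPM, Cd4 in replicate 2 at 12.1 CPM, Colec10 in replicate 3 at 55.3 CPM and Cela1 in replicate 2 at 48.9 CPM, and the low value was Thra in replicate 4 at 4.38 CPM. In the vehicle group the high values were Tiparp in replicate 1 at 14.8 CPM, Cry2 in replicate 2 at 17.3 CPM and Mdm2 in replicate 1 at 17.8 CPM, and the low value was Clec4g in replicate 1 at 4.75 CPM.

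The differences between the effects of TCDD and flutamide were tested in 1 fit of the 4 groups with edgeR's quasi-likelihood F test, and each one given here passed at an adjusted p under 0.05. SDs are over 4 animals. The differences where the log2 change was higher after TCDD were 8.20 for Stac3, 6.35 for Cyp1b1, 5.96 for Rgs16, 5.48 for Adam11, 5.44 for Nox4, 5.42 for Cyp4a2, 4.86 for Mmd2 and 4.79 for Sult1c3. Cyp4a2, a fatty acid hydroxylase, went from 2797 ± 1200 to 80.7 ± 51.9 CPM after flutamide, and its means were 1888 and 2331 CPM in the vehicle and TCDD animals. Nox4, an NADPH oxidase, went from 15.1 ± 5.19 to 0.470 ± 0.217 CPM after flutamide, against 48.1 and 67.4 CPM. Of these 8 genes Cyp1b1 and Rgs16 rose after TCDD in this fit, and Adam11 fell. The differences where the change was lower after TCDD were −8.06 for Ddit4l2, −7.49 for Grin2c, −6.82 for Akr1b7, −6.21 for Gstp1, −6.12 for Csmd1, −5.93 for Gpx2, −5.20 for Abcc3 and −5.18 for Gsta3. The glutathione transferase Gstp1 went from 7.62 ± 0.582 to 578 ± 590 CPM after flutamide, against 7.82 and 7.99 CPM in the vehicle and TCDD animals, and the exporter Abcc3 went from 3.41 ± 0.573 to 287 ± 39.6 CPM, against 4.57 and 10.4 CPM. Gpx2, with 0.389 and 0.277 CPM, Grin2c, with 0.130 and 0.219 CPM, and Ddit4l2, with 0.0345 and 0.0548 CPM, rest on few reads in the TCDD study.

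The differences from the omeprazole effect, from the same kind of fit, were 4.68 for Rnf186, 4.22 for Serinc4, 3.75 for Hba-a3, 3.57 for Vxn, 3.19 for Mx2, 3.12 for Lgals5, 3.04 for Alox15 and 3.03 for Hbb where the change was higher after TCDD. Hbb, a beta-globin, went from 590 ± 185 to 97.7 ± 34.5 CPM after omeprazole, against 222 and 300 CPM in the vehicle and TCDD animals. Serinc4 was at 0 in the vehicle animals of the TCDD study and 0.102 CPM after TCDD, so the size of its difference depends on the prior count. Where the change was lower after TCDD they were −5.85 for Gpx2, −5.14 for Cyp2b2, −4.48 for Ces2e, −4.42 for Grin2c, −4.18 for Cyp2b1, −4.02 for a second row under the symbol Slc40a1, −3.48 for Cyp2c24 and −3.46 for Coro6. Cyp2b1 and Cyp2b2, cytochromes P450 inducible by phenobarbital, went from 196 ± 44.6 to 1918 ± 2542 CPM and from 61.7 ± 23.8 to 1109 ± 1244 CPM after omeprazole, against 55.6 and 30.0 CPM and 96.2 and 49.1 CPM in the vehicle and TCDD animals. The rats given omeprazole and their vehicle animals were Sprague Dawley, so strain and agent cannot be told apart.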

How the results depend on the processing

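The count of 2673 genes called kept within 1.5 times under DESeq2's size factors (2719), DESeq2 itself (2895), no filter on low counts (2436), the RefSeq count table (2783), TMM factors from uncalled genes (2656) and 1 fit with the vehicle animals of other studies without (3085) and with RIN (3426). A minimum log2 fold change of 1 left 41 genes, 13 higher and 28 lower, with 2 clock genes each way. RIN as a covariate in the 8 animals left 50 genes, 10 higher and 40 lower, with 1 clock gene higher and 3 lower. Against the 2 same-lane males of another study, a comparison chosen after seeing the data, there were 1393, 559 higher and 834 lower. With study and lane as terms, also chosen after seeing the data, there were 272, 64 higher and 208 lower, with 4 clock genes higher and 3 lower. The lane term there rests on 2 males given sesame oil and 1 given sodium chloride, so lane and vehicle cannot be told apart. With RIN and the clock score as terms there were 996, 388 higher and 608 lower, with 1 clock gene higher and 4 lower. The TCDD scores lie outside those of all vehicle animals, so that fit extrapolates. Leaving out 1 animal at a time gave 1684 to 2565 genes, 651 to 1078 higher and 1033 to 1487 lower, with 7 to 9 clock genes higher and 3 to 5 lower. The 40 borderline genes had a highest adjusted p between 0.0513 and 0.141 in these fits.

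The difference from flutamide covered 3857 to 4445 genes without 1 animal and 291 with a minimum difference of 1 on the log2 scale, 120 larger and 171 smaller. With RIN as a covariate it covered 3428, 1491 larger and 1937 smaller. The difference from omeprazole covered 787 to 1428 genes without 1 animal, 222 to 493 larger, with the lowest count without vehicle replicate 2 of the TCDD study. A minimum difference of 1 left 8, 4 each way, and RIN as a covariate 578, 163 larger and 415 smaller. The RIN slope was called in 2347 genes with no minimum on library totals.

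Some named genes changed sign. In the RefSeq table this was Sult2a6 at −0.031. Against the same-lane males it was Hadhb at −0.091, Srebf2 at 0.079, Hmgcs1 at 0.45, Ebp at 0.19, Pmvk at 0.17, Fasn at 0.38, Sds at −0.41, Asl at −0.42, Mat1a at −0.065, Cdo1 at −0.11, Dhrs4 at −0.16, Slc16a10 at −0.55, Orm1 at −0.10, Trib3 at −0.085, Pdia4 at −0.10, Ccng1 at −0.29, Mki67 at 2.32, Hspd1 at −0.012 and Cyp2e1 at −0.29. With study and lane as terms it was Sds at −0.12 and Hfe at −0.11. With RIN and the clock score it was Per3 at −0.70, Per2 at −1.93, Usp2 at −0.11, Npas2 at 1.21, Slc6a6 at 1.01, Acpp at 0.14, Ciart at −5.49, Bhlhe40 at −1.29, Tef at −0.70, Rora at 0.11, Abcg5 at −0.44, Abcb11 at 0.98, Slc2a2 at −0.13, Pygl at 0.76, Gckr at 0.52, Aass at 0.75, Ass1 at 0.13, Cth at 0.19, Gnmt at 0.60, Cdo1 at −0.24, Sult2a6 at −0.030, Stat5b at 0.24, Mt2A at −0.81, Thra at 0.010, Gadd45a at −1.19 and Pdgfrb at 0.13. Per2, Per3, Ciart, Tef and Npas2 are part of the clock score, so that fit takes out their own change by construction. The cause of the other reversals was not tested. No paired analysis was possible because the replicate numbers follow accession order and pair no animals. In simulated counts built on these animals 68% of 100 genes changed by 1 and 91% of 100 changed by 2 on the log2 scale were recovered, so changes near 1 can be missed at this depth and group size.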
